A study of Mus musculus with 20 samples.

Results

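Gm11868, Cyb5r4, Zfp949, Gm12886 and Gm12888 are 5 of the 36611 genes measured by RNA sequencing in inguinal white adipose tissue (iWAT), the fat under the skin of the groin. They were chosen by their own levels in these libraries. The choice looked for genes or transcripts that part knockout from control mice on both diets or on low fat diet. Gm12888 was taken with them although it overlapped between genotypes on both diets. The genotype differences of the 5 genes are therefore described here and not tested. Tests were run for diet within each genotype, on the same libraries whose values chose the genes, and for the other genes around them.

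The tissue came from 20 female C57BL/6 mice aged 6 months, with 5 mice in each of 4 groups. Control mice, called wild type in the labels, carried Tmem120a alleles flanked by loxP sites and no Cre according to the study's methods, and the Ad-Tmem120a-/- littermates (knockout) carried the same alleles with Cre recombinase driven by the promoter of the adipocyte gene Adipoq. For 15 weeks, mice of each genotype received a diet with 10.5% fat (low fat diet, LFD) or with 58% fat (high fat diet, HFD). The floxed allele was made in C57BL/6 N Tac embryonic stem cells with a vector from C57BL/6 J DNA, and the Cre line was on a C57BL/6 J background, so both substrains entered the cross. The promoter is active in mature adipocytes, and the other cells of the depot keep Tmem120a.

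Library totals lay between 54605101 and 92387737 estimated counts. Tmem120a averaged 85.4 ± 28.4 TPM (SD, n = 5) in control mice and 41.5 ± 21.9 TPM in knockouts on LFD, and 119 ± 44.5 and 51.6 ± 26.7 TPM on HFD. TPM is a level corrected for transcript length and library size. All 10 white adipocyte markers examined were detected in each group, with sums from 15235 to 31830 TPM per library. The 15 skeletal muscle fibre genes examined summed to 41.7 to 4083 TPM in control libraries and 35.6 to 1248 TPM in knockout libraries on LFD, and to 35.3 to 87.4 and 72.9 to 1776 TPM on HFD. Whether muscle tissue in the samples took part in the values below was not tested. Fewer cells of a type and less RNA per cell cannot be told apart in these whole tissue libraries.

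Cyb5r4 encodes a reductase of the endoplasmic reticulum that passes electrons from NADH through a cytochrome b5 domain. Cytochrome b5 and its reductases supply electrons to fatty acid desaturases, the enzymes that put double bonds into stored and membrane lipid, which makes the system of interest in fat. Gm11868 is annotated as a pseudogene. A processed pseudogene is a spliced messenger RNA that was copied back into the genome elsewhere, and it is usually silent because it lands without its own promoter. Zfp949 encodes a C2H2 zinc finger protein. Many proteins of this class in mouse carry a KRAB domain and recruit the corepressor Trim28 to DNA, and their genes lie in clusters that differ between strains. Gm12886 and Gm12888 are predicted protein-coding genes that have been given only gene model names.

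The 5 genes lay at 3 places on 2 chromosomes of the mouse assembly NCBIM37 (mm9). Gm11868 (ENSMUSG00000050550) lay on the minus strand at chr4:18771349-18772928. Gm12888 (ENSMUSG00000073764, chr4:120988921-120997522) and Gm12886 (ENSMUSG00000078576, chr4:121087340-121095704) lay on the minus strand 0.0898 Mb apart and 102 Mb from Gm11868. Cyb5r4 (ENSMUSG00000032872, chr9:86916849-86972609) and Zfp949 (ENSMUSG00000032425, chr9:88442858-88465924) lay on the plus strand, 1.47 Mb apart. Neither chromosome carries Tmem120a, which is on chromosome 5, or the gene Adipoq itself, which is on chromosome 16. The study's methods describe Cre as a transgene with the promoter of Adipoq. The place of that transgene in the genome was not examined here, and the position of Adipoq does not give it.

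The sequence of Gm11868 ran along the whole coding sequence of Cyb5r4. Its 1580 bases aligned to the 1587 bases of the Cyb5r4-001 coding sequence with 1553 identical bases, 27 mismatches and a gap of 7 bases, an identity of 98.3% over aligned pairs. The 16 exons of Cyb5r4-001 are joined without introns in Gm11868. Read from the start codon, the copy reached an in-frame stop at codon 161, against 529 codons with the stop in Cyb5r4-001. The stretch around the gap shows how the copies can be told apart in reads, and it covers coding bases 397 to 523 of Cyb5r4 and chr4:18772413-18772532 of Gm11868, both written 5′ to 3′ along the gene with capitals where a copy differs from the other or holds bases that the other lacks:
Cyb5r4: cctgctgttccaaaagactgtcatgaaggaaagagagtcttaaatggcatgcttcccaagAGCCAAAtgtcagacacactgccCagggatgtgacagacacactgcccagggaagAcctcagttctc
Gm11868: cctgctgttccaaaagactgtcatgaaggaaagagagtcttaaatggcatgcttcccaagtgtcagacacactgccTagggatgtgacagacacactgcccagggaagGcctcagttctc

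Sharing between the copies depended on the length of sequence compared. Of the 1448 stretches of 31 bases in the Gm11868-001 transcript, 838 (57.9%) also occurred in a transcript of Cyb5r4 among Cyb5r4-001, Cyb5r4-202 and Cyb5r4-003. Of the 1329 stretches of 150 bases, the length of 1 read, 1 did. The study's methods describe a filter that kept alignments at a single place in the genome, but not whether the transcript values used here were made from the reads it left. Reads common to both copies may therefore have been removed or shared out between them, and the levels of Gm11868 and Cyb5r4 carry that doubt.

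Gm12886 and Gm12888 are also close relatives. Both have 4 exons and a coding sequence of 360 bases, as does Gm12887 (chr4:121286876-121294708, minus strand), which lies beyond Gm12886 and was not among the chosen genes. The coding sequences of Gm12886 and Gm12888 shared 328 bases with 32 mismatches and no gap (91.1%), and those of Gm12887 and Gm12888 shared 333 bases with 27 mismatches (92.5%). Fewer short stretches were common to whole transcripts, 56 of 1119 stretches of 31 bases in Gm12886 (5%) also being present in Gm12888. The opening 150 coding bases are given because they show where reads separate the genes, with capitals in Gm12888 where it differs from Gm12886 and in the other two where they differ from Gm12888:
Gm12888: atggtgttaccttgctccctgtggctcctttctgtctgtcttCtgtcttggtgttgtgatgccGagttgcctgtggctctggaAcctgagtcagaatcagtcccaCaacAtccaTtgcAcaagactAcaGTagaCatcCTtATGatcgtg
Gm12886: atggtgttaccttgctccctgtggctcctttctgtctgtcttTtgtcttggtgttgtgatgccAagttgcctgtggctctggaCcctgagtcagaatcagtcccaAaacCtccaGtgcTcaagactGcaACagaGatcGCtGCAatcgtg
Gm12887: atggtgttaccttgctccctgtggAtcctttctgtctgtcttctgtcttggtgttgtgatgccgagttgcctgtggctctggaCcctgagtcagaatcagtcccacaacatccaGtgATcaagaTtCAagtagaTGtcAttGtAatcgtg

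The bases before the start sites of the pair were alike as well. RefSeq (GRCm38.p6) gave promoters for both, whose 250 bases before the start aligned with 194 identical bases, 33 mismatches and 46 bases in gaps (85.5% over aligned pairs). The likeness was closest next to the start, where the 120 aligned bases shown differed at 5 positions, in capitals (Gm12888, chr4:121324918-121325037; Gm12886, chr4:121423102-121423221, both on the minus strand of GRCm38.p6):
Gm12888: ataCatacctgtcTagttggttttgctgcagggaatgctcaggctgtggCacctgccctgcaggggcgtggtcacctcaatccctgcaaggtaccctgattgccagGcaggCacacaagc
Gm12886: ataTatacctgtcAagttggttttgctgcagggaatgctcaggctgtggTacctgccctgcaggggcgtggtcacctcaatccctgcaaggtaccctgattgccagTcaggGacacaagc

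Gm11868, the copy of Cyb5r4, was at or near 0 in every control library and present in every knockout library. On LFD the control libraries held 0, 1, 0, 1 and 0 estimated counts in replicates 1 to 5, and the knockout libraries held 267, 278, 218, 306 and 289 in replicates 6 to 10. On HFD the control libraries held 0, 1, 0, 0 and 0 in replicates 11 to 15, and the knockout libraries held 161, 245, 220, 112 and 217 in replicates 17 to 21. No control library reached the lowest knockout library on either diet. In TPM the knockout level was 4.8 ± 0.814 (SD, n = 5) on LFD and 3.14 ± 1.05 on HFD. Against a floor of 3 counts in each control library, the knockout level was at least 102-fold higher on LFD and at least 65.1-fold higher on HFD, bounds that cover counting error only. All of it was assigned to Gm11868-001 (chr4:18771349-18772826), and Gm11868-201, which is annotated further in the 5′ direction and in 2 exons, was at 0 in all 20 libraries.

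Gm11868 stayed a small part of the reads shared out between it and its parent gene. It took 8.36% ± 1.23 (SD, n = 5) of the estimated counts of Gm11868 and Cyb5r4 together in knockout mice on LFD and 6.13% ± 2.35 on HFD, against at most 0.0309% in any control library. The sum of both genes averaged 48.8 ± 4.08 CPM (counts scaled to the library total) in control and 51.9 ± 4.71 in knockout mice on LFD, and 44.7 ± 4.53 and 42 ± 2.78 on HFD. The sums of the genotypes overlapped on both diets.

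**Figure D1:**
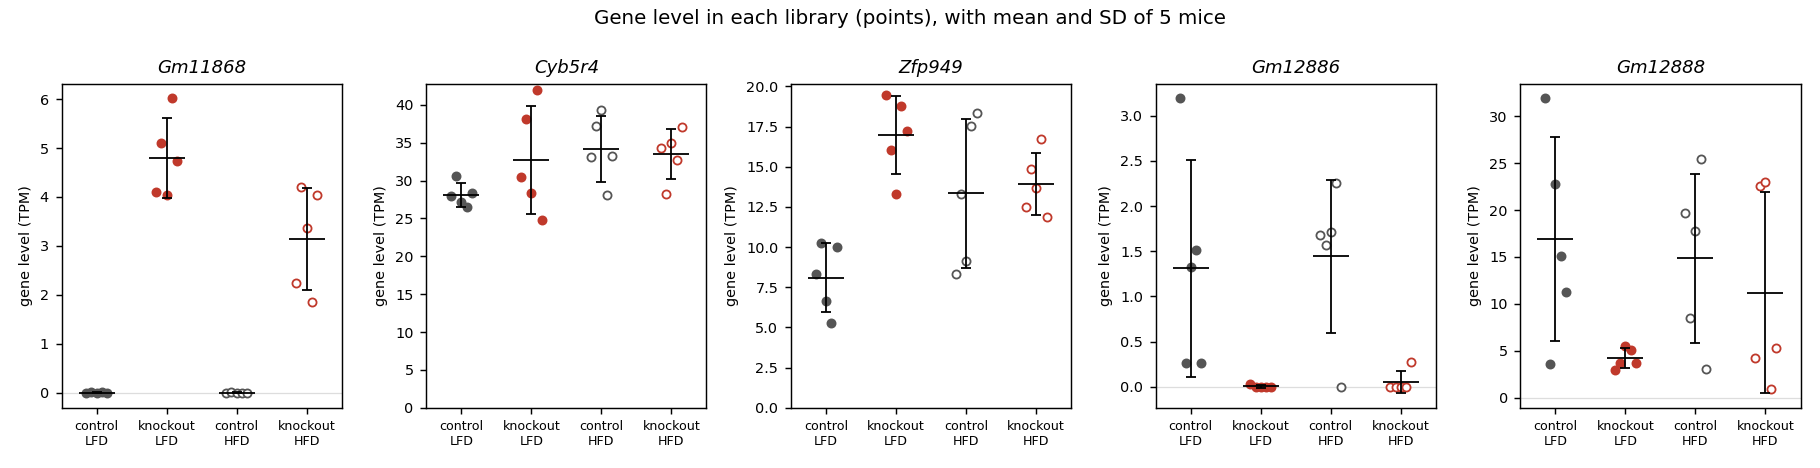
Level of each gene in TPM (vertical axis, linear) in the 20 libraries, with control mice in grey and knockout mice in red, LFD filled and HFD open; bars give the mean and SD of 5 mice. Gm11868 is near 0 in all 10 control libraries and between 1.86 and 6.01 TPM in the 10 knockout libraries, while Cyb5r4 overlaps between all groups.

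Cyb5r4 itself, at a mean of 32.1 TPM over the 20 libraries, overlapped between genotypes on both diets. On LFD its level was 28, 30.7, 27.2, 26.5 and 28.3 TPM in control libraries and 30.5, 38.2, 28.3, 42 and 24.8 TPM in knockout mice. On HFD it was 33.1, 37.3, 39.4, 28.1 and 33.3 TPM in control libraries and 34.3, 28.3, 35, 32.7 and 37.1 TPM in knockout mice. The means differed by 1.16-fold on LFD (32.8 ± 7.11 in knockout against 28.1 ± 1.57 in control) and by 0.978-fold on HFD (33.5 ± 3.3 against 34.2 ± 4.35). The sign of these small differences depended on the scale: on LFD the mean difference of log2(TPM + 1) was 0.19, and the log2 fold change fitted to estimated counts was -0.12.

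The genotypes differed in which Cyb5r4 transcript the reads were assigned to. Cyb5r4-202 and Cyb5r4-003 are both annotated as protein-coding and differ in sequence in 2 ways. Cyb5r4-202 (2628 bases) is annotated with untranslated ends and Cyb5r4-003 (1434 bases) without them, and Cyb5r4-003 lacks an exon of 153 bases inside the coding sequence, a whole number of codons. That exon is number 12 of Cyb5r4-202 at chr9:86951977-86952129, printed here in capitals with 20 intron bases on either side because it is the only internal exon that separates the pair:
Exon 12: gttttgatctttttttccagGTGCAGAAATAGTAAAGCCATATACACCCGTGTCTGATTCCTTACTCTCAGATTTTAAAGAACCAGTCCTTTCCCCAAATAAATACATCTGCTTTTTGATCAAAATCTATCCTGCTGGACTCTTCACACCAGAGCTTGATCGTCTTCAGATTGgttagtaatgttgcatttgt

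Cyb5r4-202 was lower in knockout mice on LFD without overlap. It stood at 17.3, 16.3, 17.3, 18.6 and 16.4 TPM in control libraries and 9.02, 11.3, 12, 5.76 and 10.2 TPM in knockout mice. On HFD it stood at 21.2, 20.6, 18.9, 20.7 and 17.6 TPM in control libraries and 18.8, 10.9, 8.97, 14 and 17.1 TPM in knockout mice, where knockout replicate 17 reached into the control range. Cyb5r4-003, without exon 12 or untranslated ends, went the other way on LFD, at 1.25, 4.19, 3.63, 1.31 and 0 TPM in control libraries and 7.71, 7.37, 5.84, 9.69 and 5.36 TPM in knockout mice, again without overlap. On HFD it overlapped, at 5.52, 7.45, 11.2, 0 and 7.67 TPM in control libraries and 8.04, 14.5, 13.1, 10.4 and 11.1 TPM in knockout mice.

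As a share of all Cyb5r4 TPM, Cyb5r4-202 made up 61.3% ± 6.25 (SD, n = 5) in control and 31.3% ± 11.6 in knockout mice on LFD, and 58.9% ± 10.2 and 41.6% ± 10.8 on HFD. Cyb5r4-003 made up 7.28% ± 6.01 and 22% ± 2.3 on LFD, and 17.6% ± 10.7 and 34.8% ± 10.5 on HFD. Cyb5r4-006, annotated as subject to nonsense-mediated decay, varied widely in knockout mice on LFD, from 0 to 43.1% of the gene. These shares rest on the authors' assignment of reads between overlapping transcripts, and 3 of the 9 annotated transcripts (Cyb5r4-001, Cyb5r4-201 and Cyb5r4-203) were at 0 in at least 18 of the 20 libraries.

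Zfp949 was higher in knockout mice on LFD without overlap and overlapped between genotypes on HFD. On LFD it stood at 8.35, 10.2, 6.65, 5.3 and 9.98 TPM in control libraries and 19.5, 16.1, 13.3, 18.8 and 17.2 TPM in knockout mice, means of 8.1 ± 2.13 and 17 ± 2.44 (SD, n = 5) and a 2.09-fold ratio. The highest control library (10.2 TPM) and the lowest knockout library (13.3 TPM) are the values on either side of the gap. On HFD it stood at 8.31, 13.3, 9.12, 17.5 and 18.4 TPM in control libraries and 12.5, 14.8, 13.7, 16.7 and 11.9 TPM in knockout mice, means of 13.3 ± 4.64 and 13.9 ± 1.94. Counts gave another picture on HFD, with 1040, 1384, 1663, 1512 and 1268 in control and 2558, 1925, 2076, 2577 and 1495 in knockout mice, of which only knockout replicate 21 lay inside the control range. The fitted log2 fold change on HFD was 0.63 on counts and 0.04 with offsets for the mean transcript length.

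Zfp949-001 and Zfp949-002 differ mainly before the coding sequence. Zfp949-003, Zfp949-004 and Zfp949-005 are annotated with shorter coding parts, of 318, 143 and 10 bases without a stop codon. Zfp949-001 and Zfp949-002 hold the same coding sequence of 1812 bases, which encodes 603 residues with 11 repeats of the C2H2 zinc finger pattern (cysteine, any 2 residues, cysteine, any 12, histidine, any 3, histidine). The first repeat is shown as a run of 63 bases with the codons of its cysteines and histidines in capitals:
Zinc finger 1: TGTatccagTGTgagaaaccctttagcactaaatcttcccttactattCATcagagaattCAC
Zfp949-001 starts at position 88442858 and has 789 bases before the start codon, and Zfp949-002 starts at position 88443021, skips exon 2 and has 480. Exon 2 (chr9:88447554-88447699, 146 bases) is untranslated, and 30 bases across each of its borders are shown with the exon in capitals:
Acceptor: ctgtattttcctgccttcagTGTCAGATGA
Donor: GCTGTGTCCGgtaagtaaatgccagtcaag

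Zfp949-002, without exon 2, parted the genotypes on both diets. On LFD it stood at 1.21, 0, 0.432, 0.233 and 0 TPM in control libraries and 12.4, 10.2, 10.1, 16.7 and 13.4 TPM in knockout mice. On HFD it stood at 0.247, 0, 0.28, 5.01 and 1.35 TPM in control libraries and 7.46, 11.4, 8.29, 11.5 and 8.21 TPM in knockout mice. Control replicate 14, at 5.01 TPM, came nearest to the knockout libraries, and the next control library was at 1.35 TPM. In the other direction Zfp949-001, which holds exon 2, stood at 6.33, 5.77, 4.3, 3 and 6.43 TPM in control libraries and 1.01, 3.05, 2.96, 2.05 and 2.74 TPM in knockout mice on LFD, where control replicate 4 touched the knockout range. On HFD the values were 4.43, 6.45, 7.26, 1.99 and 5.61 TPM against 3.18, 0.282, 2.8, 3.11 and 0 TPM.

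The share of Zfp949 TPM taken by Zfp949-002 was 5.07% ± 5.97 (SD, n = 5) in control and 73.9% ± 10.7 in knockout mice on LFD, and 8.39% ± 11.6 and 67% ± 7.01 on HFD. Zfp949-001 took 63.6% ± 7.96 and 14.7% ± 6.75 on LFD, and 44.6% ± 25.6 and 13.3% ± 11.6 on HFD. The difference between TPM and counts on HFD goes with Zfp949-004, a transcript of 574 bases annotated up to the fourth exon of Zfp949-001. It held 29.6, 101, 0, 183 and 166 estimated counts in the control libraries on HFD, which is 1.81, 5.88, 0, 9.93 and 11.4 TPM, and 0, 0, 0, 0 and 2.23 TPM in the knockout libraries.

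**Figure D2:**
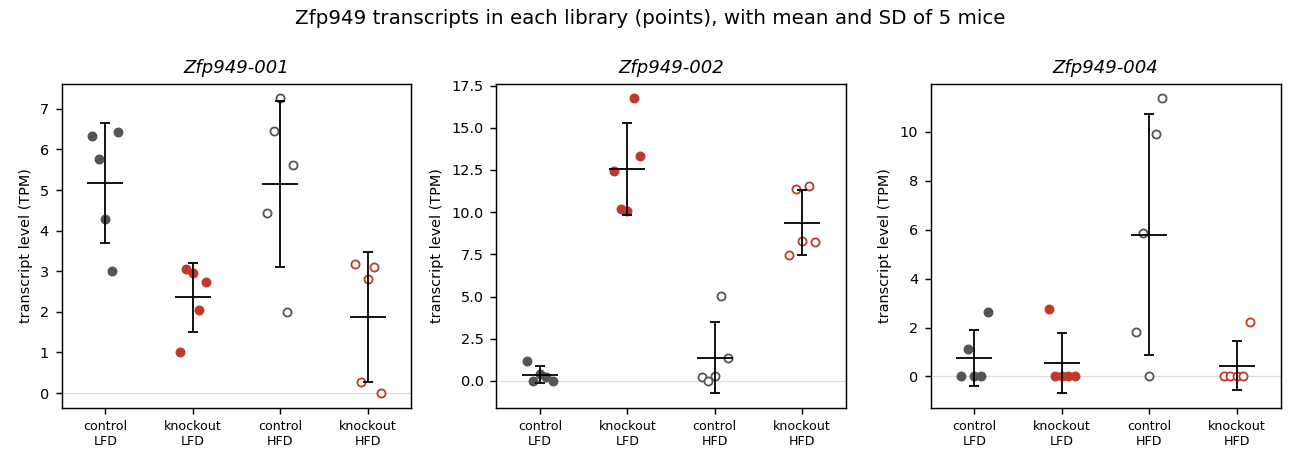
Level of 3 Zfp949 transcripts in TPM (vertical axis, linear) in the 20 libraries, with control mice in grey and knockout mice in red, LFD filled and HFD open; bars give the mean and SD of 5 mice. Zfp949-002 is at 5.01 TPM or less in the control libraries and at 7.46 TPM or more in the knockout libraries, whereas Zfp949-001 is lower on average in knockout mice and Zfp949-004 is highest in 3 control libraries on HFD.

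Few other features parted the genotypes on both diets, and more did so on LFD. Of 15574 genes averaging 0.5 TPM or more, 5 (0.0321%) had groups that did not overlap, in the same direction, on both diets, and Gm11868 was the only one of the chosen genes among them. Of 35202 transcripts, 11 (0.0312%) did, among them Gm11868-001 and Zfp949-002, and 2 of the other 9 belonged to Tmem120a. On LFD, whatever the values on HFD, the groups of 219 of these genes (1.41%) and 393 of these transcripts (1.12%) did not overlap. Nothing is read from these counts about the chosen genes, because the rule that chose them used the same values.

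Gm12886 was lower in knockout mice and was absent or nearly absent there. On LFD it held 96, 8.06, 47.9, 49 and 8 estimated counts in control libraries and 0.999, 0, 0, 0 and 0 in knockout libraries, without overlap. On HFD it held 45.9, 48, 51, 74.5 and 0 counts in control libraries and 0, 0, 0, 0 and 7 in knockout libraries, so that control replicate 15 lay in the knockout range. Against a floor of 3 counts in each knockout library, Gm12886 was at least 12.7-fold lower in knockout mice on LFD, and at least 8.05-fold lower without control replicate 1, a setting added after the data were seen. In TPM the control mean was 1.31 ± 1.2 (SD, n = 5) on LFD and 1.44 ± 0.85 on HFD, and the knockout means were 0.00601 ± 0.0134 and 0.0555 ± 0.124.

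Gm12888 was higher than Gm12886 in TPM in all 20 libraries and overlapped between genotypes on both diets. On LFD it stood at 31.9, 3.54, 22.8, 15.1 and 11.2 TPM in control libraries and 2.97, 3.66, 5.51, 5.1 and 3.65 TPM in knockout mice. Of the 5 control libraries, 4 lay above every knockout library and replicate 2, at 3.54 TPM, lay within the knockout range just short of parting. On HFD it stood at 19.7, 8.49, 17.8, 25.4 and 3.01 TPM in control libraries and 4.18, 22.6, 23, 0.924 and 5.27 TPM in knockout mice, where replicates 18 and 19 of the knockout reached the upper control levels. The mean was 4.05-fold higher in control than in knockout mice on LFD and 1.33-fold higher on HFD.

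Knockout replicates 18 and 19 on HFD separated the pair, with Gm12888 at 22.6 and 23 TPM and Gm12886 at 0. Among the control libraries, Gm12886 was lowest where Gm12888 was lowest, in replicates 2 and 15, and also in replicate 5. Control replicate 12 on HFD went the other way. It held Gm12888 at 8.49 TPM, below the 11.2 TPM of replicate 5, and Gm12886 at 1.56 TPM. Over all 20 libraries Spearman's rho of log2(TPM + 1) between the pair was 0.58, a description over libraries that share genotype and diet. The sum of the pair does not depend on how reads were split between them, but it may depend on reads shared with Gm12887. Of 330 stretches of 31 bases in Gm12887, 37 (11.2%) were also present in Gm12888. The sum of the pair averaged 12.2 ± 8.73 CPM in control and 2.9 ± 0.903 in knockout mice on LFD, and 9.18 ± 6.13 and 7.34 ± 7.56 on HFD. The 8 mammary and skin epithelium genes examined summed to 328 to 509 TPM in control libraries and 174 to 462 TPM in knockout libraries on LFD, and to 260 to 440 and 259 to 528 TPM on HFD, and their part in the levels of the pair was not tested. The relative Gm12887 was 5.05 ± 6.12 TPM in control libraries and 1.59 ± 2.55 in knockout mice on LFD (edgeR adjusted p = 0.933), and 2.76 ± 1.7 and 1.37 ± 2.14 on HFD (adjusted p = 0.999).

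**Figure D3:**
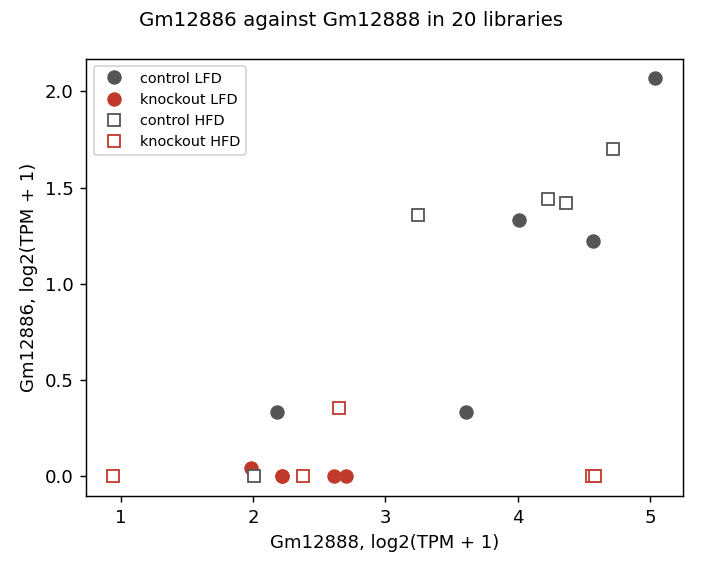
Gm12886 (vertical axis) against Gm12888 (horizontal axis), both as log2(TPM + 1), with 1 point per library, control in grey and knockout in red, LFD as filled circles and HFD as open squares. The knockout libraries hold at most 0.278 TPM of Gm12886 whatever the level of Gm12888, which is above 22 TPM in 2 of them on HFD, while 9 of the 10 control libraries hold Gm12886.

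The diet comparison asked which of these genes differed between HFD and LFD within a genotype. The choice of the genes did not use this contrast, but it used the levels in the same libraries, so the comparison is not independent of it. A gene kept because knockout and control mice stood apart on LFD is likely to stand high or low on LFD here too. By edgeR's quasi-likelihood test with Benjamini-Hochberg adjustment, 1427 of 15311 genes (9.32%) changed in control mice and 1476 of 15705 (9.4%) in knockout mice at an adjusted p under 0.1. None of the 4 chosen genes that passed the filter on low values in control mice was among them, nor any of the 4 that passed in knockout mice. The unadjusted p was under 0.05 for none of them in control mice and for 2 in knockout mice, Zfp949 and Gm11868, and DESeq2 called 0 in control mice and 1 in knockout mice. Gm11868 in control mice and Gm12886 in knockout mice were under the filter. In the same control comparison 11 of the 15 muscle fibre genes were called lower on HFD and none higher, and in knockout mice 0 were called.

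Zfp949 had the lowest p, in knockout mice, and the LFD libraries of that test are the ones in which it was chosen for its high level, so the test is no independent evidence of a fall on HFD. In knockout mice it was 13.9 ± 1.94 TPM (SD, n = 5) on HFD and 17 ± 2.44 on LFD, a fitted log2 fold change of -0.53 (SE 0.173) with an edgeR adjusted p of 0.103. The call was made by DESeq2 (adjusted p = 0.0445), by edgeR with the size factors of DESeq2 (0.0978) and when knockout replicate 8 or 20 was left out (0.088 and 0.0673), and it was not made with length offsets (0.221) or by limma on log2(TPM + 1) (0.313). In control mice Zfp949 differed by a log2 fold change of 0.01 (SE 0.167, adjusted p = 0.974) on counts and by 0.58 (adjusted p = 0.259) with length offsets.

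Gm11868 in knockout mice averaged 3.14 TPM on HFD and 4.8 TPM on LFD, a log2 fold change of -0.73 (SE 0.323, adjusted p = 0.23). Cyb5r4 differed by -0.14 (SE 0.0982, adjusted p = 0.449) in control and -0.22 (SE 0.115, adjusted p = 0.318) in knockout mice on counts, and by 0.27 and 0.05 by limma on TPM, with no call on either scale. Gm12888 differed by -0.47 (SE 0.606, adjusted p = 0.732) in control and 1.38 (SE 0.726, adjusted p = 0.324) in knockout mice. Gm12886 differed by -0.21 in control mice (SE 0.968, adjusted p = 0.936). The errors of the chromosome 4 pair were several times those of Cyb5r4 and Zfp949, so that changes of that size were not detectable here.

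Transcripts of Cyb5r4 passed the test for diet, although its total did not. Transcript levels in these libraries were part of the choice, so these tests are not independent of it either. Exact two-sided permutation tests over mice were run on the level and the share of each transcript averaging 0.5 TPM or more, 38 tests in all, and 7 had an adjusted p under 0.1, each at 0.0862. Cyb5r4-005, annotated as retaining an intron, was lower on HFD in knockout mice, at 3.45, 2.92, 4.8, 4.61 and 3.27 TPM on HFD against 9.53, 8.03, 6.15, 8.42 and 8.45 TPM on LFD. These values did not overlap (exact permutation p = 0.00794, the smallest that 5 mice against 5 can give). Its share of the gene fell from 25.6% ± 6.51 to 11.4% ± 2.35 (exact permutation p = 0.00794). In control mice its share was 14.5% ± 4.34 on HFD and 23.7% ± 4.14 on LFD (exact permutation p = 0.0238, adjusted p = 0.113), a difference in the same direction that missed the threshold. Whether the diet differences of the genotypes differ from each other was not tested.

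Cyb5r4-003, the transcript without exon 12, was higher on HFD in knockout mice, at 11.4 ± 2.49 TPM against 7.19 ± 1.71 on LFD (exact permutation p = 0.0159), and its share rose from 22% ± 2.3 to 34.8% ± 10.5 (exact permutation p = 0.0159). In control mice its share was 17.6% ± 10.7 on HFD and 7.28% ± 6.01 on LFD (exact permutation p = 0.103, adjusted p = 0.245). Cyb5r4-202, with exon 12, was higher on HFD in control mice in TPM only, at 19.8 ± 1.52 against 17.2 ± 0.905 TPM (exact permutation p = 0.0159). Its share showed no such difference (58.9% against 61.3%, exact permutation p = 0.667). In CPM the diets overlapped, at 24.71, 28.19, 23.39, 30.2 and 24.73 on HFD and 26.7, 24.72, 29.15, 27.26 and 23.26 on LFD. The CPM values of transcripts were not tested.

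**Figure D4:**
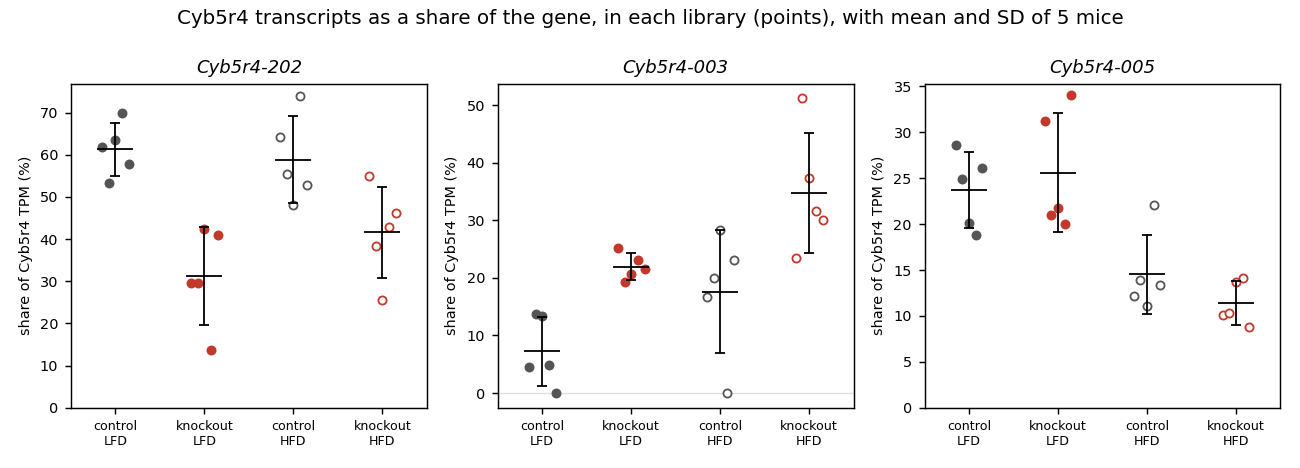
Share of Cyb5r4 TPM (vertical axis, percent) taken by 3 transcripts in the 20 libraries, with control mice in grey and knockout mice in red, LFD filled and HFD open; bars give the mean and SD of 5 mice. The share of Cyb5r4-005 is lower on HFD on average in both genotypes, 14.5% against 23.7% in control and 11.4% against 25.6% in knockout mice, and the share of Cyb5r4-003 is higher in knockout mice on HFD than on LFD.

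For Zfp949 the diet calls fell on a minor transcript. Zfp949-003 was 0.315 ± 0.322 TPM on HFD and 0.941 ± 0.282 TPM on LFD in control mice (exact permutation p = 0.00794), and 3.02% ± 3.04 against 12.1% ± 3.92 of the gene (exact permutation p = 0.0159). Zfp949-002, the transcript that parts the genotypes on both diets, did not pass the test for diet in knockout mice, at 9.37 ± 1.92 on HFD and 12.6 ± 2.74 TPM on LFD (exact permutation p = 0.0635, adjusted p = 0.201), and neither did Zfp949-001 in control mice, at 5.15 ± 2.05 and 5.17 ± 1.48 TPM (exact permutation p = 0.905). All 7 calls fell away when a library other than control replicate 13, control replicate 14 or knockout replicate 17 on HFD was left out. With 4 mice in a group the smallest exact permutation p is 0.0159.

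The genes around the chosen ones were compared between genotypes, to see whether the differences extended to their neighbours. Within 5 Mb of any of the 5 genes lay 528 other annotated genes, of which 199 were tested on HFD and 206 on LFD. No neighbour was called on either diet by edgeR at an adjusted p under 0.1, where 1 of 15228 genes (0.00657%) and 1 of 15717 genes (0.00636%) were called in all. That gene was Gm11868 in both, and nothing is read from it, since the same contrast chose it. At an unadjusted p under 0.05 there were 11 neighbours on HFD and 9 on LFD, or 5.53% and 4.37%, beside 4.66% and 5.11% of all genes tested. The median log2 fold change of the neighbours was -0.01 on HFD and -0.02 on LFD, and that of all genes was 0.01 and -0.02. DESeq2 called 1 neighbour on HFD (Bckdhb) and none on LFD. The share of all genes that DESeq2 called between genotypes is not given here, so nothing is read from that call.

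Around Gm11868, 2 of 33 tested neighbours on HFD and 0 of 31 on LFD had an unadjusted p under 0.05. Its nearest tested genes were Mmp16, 725 kb away, and Cngb3, 435 kb away, with log2 fold changes of 0.2 and 0.45 on HFD and 0.64 and -0.1 on LFD and adjusted p of at least 0.929. Around Gm12886 and Gm12888 the counts were 5 of 121 and 5 of 126. The nearest tested gene outside the family was Rlf, 101 kb below Gm12888, at -0.08 on HFD and 0.06 on LFD. Around Cyb5r4 and Zfp949 they were 4 of 45 (8.89%) and 4 of 49 (8.16%), the highest shares of the 3 places within 5 Mb. Of all genes tested, 4.66% on HFD and 5.11% on LFD had such a p. Within 1 Mb on LFD the share was 9.09% around Cyb5r4 and Zfp949 and also around Gm12886 and Gm12888. Nothing is read from these small counts. Inside Zfp949 lay CT025673.1 (chr9:88448074-88448372), annotated as a miscellaneous RNA on the same strand, at -0.24 on HFD (adjusted p = 0.999) and -0.34 on LFD (adjusted p = 0.949). On either side of Zfp949, Snhg5, a host gene of small nucleolar RNAs 25.1 kb below Zfp949, differed by 0.18 on HFD and -0.08 on LFD, and the long noncoding RNA gene 9430037G07Rik, 24.2 kb above it, by -0.12 and -0.54. Next to Cyb5r4, 4922501C03Rik differed by -0.01 on HFD and 0.25 on LFD, and Prss35, tested only on LFD, by 0.25.

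The neighbour with the lowest p on HFD was Bckdhb, a subunit of the enzyme complex that breaks down branched-chain keto acids, 2.9 Mb below Cyb5r4. It was 69.6 ± 16.2 TPM in knockout and 36.2 ± 10.2 TPM in control mice (log2 fold change 0.71, SE 0.174, unadjusted p = 0.00148, adjusted p = 0.39), without overlap, and 57.8 ± 9.4 and 41 ± 8.43 TPM on LFD (0.29, adjusted p = 0.929). By DESeq2 its adjusted p on HFD was 0.0394. Among genes averaging 0.5 TPM or more, 1 of 205 neighbours (0.488%) had groups without overlap on HFD, beside 108 of 15574 genes in all (0.693%). The neighbour with the lowest p on LFD was Smap2, which regulates vesicle traffic, 0.299 Mb below Gm12888 (0.46, SE 0.117, unadjusted p = 0.00215, adjusted p = 0.929), with 0.02 on HFD. Rspo1, an activator of Wnt signalling 3.57 Mb above Gm12886, was the only neighbour among the 5 lowest p on both diets (1.28, adjusted p = 0.799 on HFD, and 1.79, adjusted p = 0.929 on LFD). The other 3 named on HFD were Atp6v0d2, Tbx18 and Sh3bgrl2 (-1.64, -0.61 and -0.46), and on LFD Hivep3, Kif2c and 9430037G07Rik (0.53, 1.67 and -0.54).

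**Figure D5:**
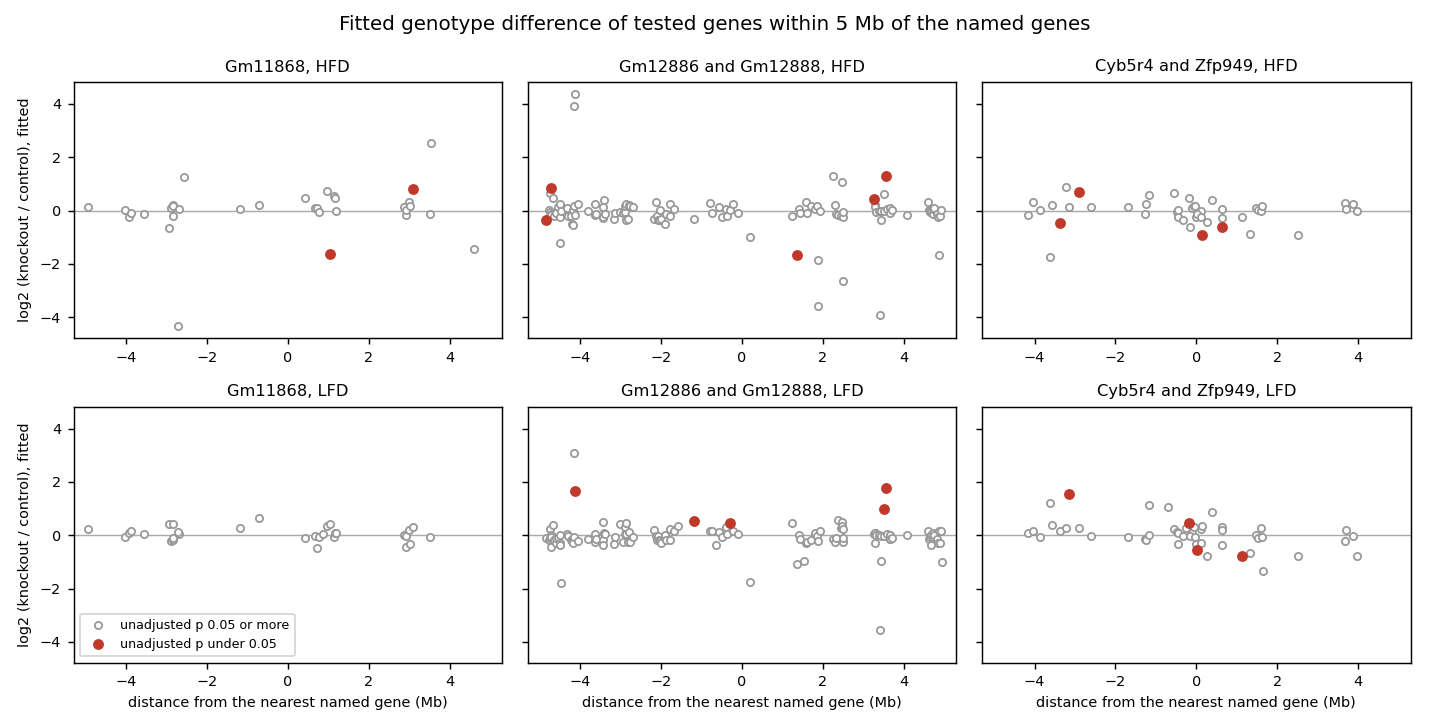
Fitted log2 ratio of knockout to control (vertical axis) for the tested genes within 5 Mb of the chosen genes, against the distance from the nearest of them in Mb (horizontal axis), on HFD (upper row) and LFD (lower row). Filled red points have an unadjusted p under 0.05, 11 on HFD and 9 on LFD, and none of the points passed the adjusted threshold.

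The genes with the most similar pattern to each chosen gene were ranked by Spearman's rho of log2(TPM + 1) over the 20 libraries, among 15574 genes. For Gm11868 they were Ptplad1 (rho 0.83), Rfc4 (0.82) and Pus7l (0.81), each a gene whose genotypes did not overlap on either diet. Ptplad1 lay on chromosome 9, at 27.8 against 21.9 TPM in knockout and control mice on LFD. For Zfp949 they were Nsf (0.83), Mybl1 (0.83) and Pip4k2a (0.81), and for Cyb5r4 they were Has3 (0.83), Fam64a (0.82) and Gm1574 (0.81). For Gm12886 they were Tmprss11a (0.78), Pcbd2 (0.77) and Ido1 (0.75), and for Gm12888 they were 2010001M06Rik (0.69), Sprr2a3 (0.68) and Pcbd2 (0.68). Pcbd2 was in both lists of the chromosome 4 pair. Has3, Fam64a and Gm1574 had group means of at most 1.045 TPM, near the filter of 0.5 TPM. Tmprss11a, 2010001M06Rik and Sprr2a3 were also low, with group means of at most 1.464 TPM. None of the similar genes was among the other chosen genes, and rho between the chosen genes lay between -0.69 (Gm11868 and Gm12886) and 0.58 (Gm12886 and Gm12888). The libraries share genotype, diet and depth, and no p is given.

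The rest of the cytochrome b5 system was examined because Cyb5r4 belongs to it. Of 9 genes, 7 were tested. In control mice Cyb5b, the mitochondrial outer membrane cytochrome b5, and Cyb5r3, the main NADH reductase of cytochrome b5, rose on HFD, and in knockout mice Cyb5b, Cyb5r3 and the domain-containing gene Cyb5d1 rose, with none falling in either genotype. Cyb5r3 went from 70.5 ± 3.41 to 119 ± 10.8 TPM in control mice (log2 fold change 0.59, SE 0.1, adjusted p = 0.00788) and from 66.4 ± 7.49 to 114 ± 24.9 TPM in knockout mice (0.69, SE 0.144, adjusted p = 0.0183), and this call held in every alternative fit. Cyb5b rose by 0.79 (adjusted p = 0.0709) in control and 0.62 (adjusted p = 0.033) in knockout mice. The call for Cyb5b in control mice was lost without control replicate 2, 3, 4, 5, 11, 12 or 15 (adjusted p from 0.107 to 0.159), and in knockout mice without replicate 6 (0.104). Cyb5d1 rose by 0.41 (adjusted p = 0.0852), and 11 of 16 alternatives lost that call, among them length offsets (0.122) and leaving out any 1 replicate other than 10. The median log2 fold change of the 7 genes was 0.21 in control and 0.39 in knockout mice, beside -0.04 and 0 for all genes. Calls for diet were made for 9.32% of all genes tested in control and 9.4% in knockout mice. None of the 7 was called between genotypes, beside 0.00657% of all genes tested on HFD and 0.00636% on LFD.

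The desaturases, which take electrons from cytochrome b5, were examined in the same way. The list of 11 genes also held the fatty acid hydroxylase Fa2h, and 7 of the 11, without Fa2h, were tested. In control mice 3 rose on HFD, Scd2 (1.62, adjusted p = 0.0453), Fads3 (1.06, adjusted p = 0.0171) and the sphingolipid desaturase Degs1 (0.78, adjusted p = 0.00917). In knockout mice 2 rose, Scd2 (1.43, adjusted p = 0.00732) and Degs1 (0.74, adjusted p = 0.0297), and none fell in either. The call for Scd2 in control mice was lost without control replicate 3 (0.105). Scd1, the most abundant, did not pass the test, at 24858 ± 3909 on HFD and 14761 ± 1772 TPM on LFD in control mice (0.61, adjusted p = 0.207). The median log2 fold change of the 7 genes was 0.61 in control and 0.67 in knockout mice, beside -0.0380 and 0.0026 for all genes. Of all genes tested for diet, 9.32% were called in control and 9.4% in knockout mice. None of the 7 was called between genotypes, beside 0.00657% of all genes tested on HFD and 0.00636% on LFD.

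The corepressor complex that KRAB zinc finger proteins recruit was examined because Zfp949 is a zinc finger gene, and all 13 genes were tested. None was called in any of the 4 comparisons. Of all genes tested, 9.32% were called for diet in control and 9.4% in knockout mice. Between genotypes 0.00657% were called on HFD and 0.00636% on LFD, so nothing is read from the lack of genotype calls. Trim28, its scaffold, was 24.7 ± 3.96 TPM in control libraries and 25.2 ± 8.49 TPM in knockout mice on LFD (log2 fold change 0.11, SE 0.172, adjusted p = 0.943), and 30.1 ± 8.21 and 28 ± 4.78 TPM on HFD (0.03, SE 0.153, adjusted p = 0.999). The median log2 fold change of the 13 genes between genotypes was 0.09 on HFD and 0.07 on LFD, beside 0.0060 and -0.0175 for all genes.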

How the data were processed

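Total RNA of iWAT was depleted of ribosomal RNA and sequenced as pairs of 150 bases with a strand-specific kit. The deposited table holds 1 row per Ensembl transcript and 2 columns per library. Per the study's methods, reads were aligned to mm9 with STAR 2.5.3 and kept where properly paired, mapped to a single place and outside blacklisted regions. Whether Salmon was run on the reads so kept is not stated. Estimated counts per transcript come from the authors' run of Salmon 0.13.1 on Ensembl NCBIM37 cDNA and noncoding RNA, and were deposited without normalization. The TPM values come from the same run by the authors and are scaled to a fixed total per library. How reads that match several copies were shared out or removed rests on these steps.

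Of 96533 transcripts, 94334 were matched to GENCODE vM1 (NCBIM37) and summed per gene. Unmatched transcripts took at most 0.581% of the counts of a library. Rounded sums were tested with edgeR 4.0.16 (quasi-likelihood, TMM scaling) on genes averaging 0.5 TPM or more in the compared libraries, with Benjamini-Hochberg adjustment over all genes tested and calls at an adjusted p under 0.1. The SE of a fitted log2 fold change was taken from it and its F statistic. Transcripts were tested by exact permutation (scipy) on log2(TPM + 1) or on shares. DESeq2 1.42.0, limma 3.58.1, other scalings, length offsets, no filter, other windows and leaving out each library were alternatives. The fits were tested on simulated data. Sequences came from NCBIM37, its annotation and RefSeq promoters. A floor of 3 counts per library was used for bounds. The labels number the mice but do not say how litters or cages were shared, and p-values measure the spread between these 20 mice.

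The genes, lists, tests and alternatives were chosen with earlier results of these data known. Named beside the chosen genes, by rule, are the nearest tested genes on either side, the 5 neighbours with the lowest p per diet, the 3 most similar genes each, called list genes (or Trim28 where none was called), and Tmem120a and Adipoq. Scd1 and CT025673.1, which lies inside Zfp949, were named after their values were seen. No columns of per-sample values were left unused (0).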

Additional observations from a re-analysis of the deposited data

Results flagged for a closer look

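The 5 genes and the transcripts of Cyb5r4 and Zfp949 averaging 0.5 TPM or more gave 60 groups of 5 libraries. Transcripts under that level were not examined. Of the 60 groups, 7 held a library whose distance from the nearest other one was over 0.71 of the range of the group. Chance gives about 1 in 20 such groups. In 5 of the 7 the other 4 libraries were all at 0, so that any value above 0 stands apart. They were Gm11868 in control replicate 12 on HFD (0.0162 TPM, 1 count), Gm12886 in knockout replicate 6 on LFD (0.0301 TPM) and knockout replicate 21 on HFD (0.278 TPM), and Zfp949-004 in the same knockout replicates 6 (2.74 TPM) and 21 (2.23 TPM). The other 2 were Cyb5r4-002 in control replicate 1 on LFD, at 1.4 TPM with the others between 0.328 and 0.532 TPM, and Zfp949-002 in control replicate 14 on HFD, at 5.01 TPM with the others between 0 and 1.35 TPM. The last of these is the control library nearest to the knockout range of that transcript, and without it the highest control library on HFD is at 1.35 TPM.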

How the results depend on the processing

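No paired analysis was possible because the replicate numbers of the labels are never shared between groups. The count of genes called for diet was 1427 in control mice, 2205 by DESeq2, 2148 by limma on log2(TPM + 0.1) and 780 to 1845 when a library was left out, with 780 to 873 without control replicate 2, 3, 5, 12 or 13. By limma on log2(TPM + 1), 1791 of 2139 calls were rises, against 676 of 1427 by edgeR. In knockout mice the count was 1476, 2247 by DESeq2 and 753 to 1355 when a library was left out, lowest without knockout replicates 6 (753) and 21 (963). The 0 calls among the chosen genes in control mice held in every fit. In knockout mice 1 call, Zfp949, was made by DESeq2 and by edgeR with DESeq2's size factors, and 0 to 1 when a library was left out, 1 without knockout replicate 8 or 20. The 0 calls among neighbours became 1 on HFD by DESeq2, and 0 held in the windows of 1 and 10 Mb. The 7 transcript calls were 0 to 8 when a library was left out.

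Signs turned for small differences. The diet difference of Cyb5r4 in control mice was 0.103 with length offsets, 0.27 by limma and 0.27 by limma on log2(TPM + 0.1), and in knockout mice 0.0499 and 0.0518 by the same limma fits. That of Zfp949 in control mice lay between -0.0780 and 0.128 when a library was left out. That of Gm12886 in control mice was 0.128 and 0.0724 by limma and between -0.504 and 0.472 when a library was left out. The genotype difference of Cyb5r4 on HFD, in mean log2(TPM + 1), was 0.0997 when summed with Gm11868 and between -0.0939 and 0.0306 when a library was left out. On LFD the difference of Cyb5r4 was -0.116 when fitted on counts. The genotype difference of Zfp949 on HFD in mean log2(TPM + 1) was 0.113 with all libraries. When a library was left out, it lay between -0.0266, without control replicate 11, and 0.237. These values are not on the scale of the fit on counts, which gave 0.63. The cause was not tested. Of 148 alternatives for the genotype differences, 121 moved by less than 1 SD. Depth limits Gm12886, whose control libraries held at most 96 counts.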
